A study of Mus musculus with 12 samples.

Results

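The T cell receptor is the surface protein by which a T cell recognises its antigen. Most splenic T cells carry a receptor made of an alpha and a beta chain, and a small population carries a gamma and a delta chain instead. During T cell development a variable (V) segment is joined to D and J segments (to J alone in the alpha and gamma chains), and the joined exon is spliced to a constant (C) gene, so that a mature transcript holds 1 V segment and 1 constant region. The genes described here were the rows of the RNASeq count table whose Ensembl identifier the GRCm38 annotation gives as a T cell receptor V or C gene with a symbol starting with Trb, Trg or Trd. There were 31 such genes among 49315 rows, namely 22 Trbv segments, Trbc1, Trbc2, 5 Trdv segments, Trdc and Trgv2. The gamma constant genes and the other gamma V segments are named Tcrg in this annotation and are not among the 31.

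T cells were isolated from spleens of 12 mice by magnetic negative selection, in which other cells are labelled and removed. WT littermates and mice with a global deletion of miR-214 (miR-214-/-), both on a mixed S129/C57 background, were implanted with osmotic minipumps that delivered vehicle (sham) or 490 ng/kg of Ang II daily over 14 days. All mice were male and 12 weeks old at the start of the infusion. This gave 4 groups, WT sham, WT Ang II, miR-214-/- sham and miR-214-/- Ang II, with 3 mice and 3 libraries in each. The Mir214 row held 0 counts in all 12 libraries, so the libraries do not check the genotype. Total counts per library were between 21126874 and 29605988. All 20 genes of a T cell core list (Cd3e, Lck, Zap70 and others) were present, and their summed level was between 5612 and 9582 CPM (counts relative to library size) in the 12 libraries. In a bulk sample, fewer cells of a type and less RNA per cell cannot be told apart.

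The beta genes lie on chromosome 6 of GRCm38, from Trbv1 (from 40891229) to Trbv31 (up to 41558452), and the delta genes on chromosome 14, from Trdv1 (from 53881612) to Trdv5 (up to 54149294). Trgv2 lies on the minus strand of chromosome 13 (19336573 to 19337167). Trbv31 and Trdv5 stand downstream of the constant genes on the opposite strand. The ends of the V exons, where the joining takes place, are shown for some of the segments described below. They are the last 30 bases of the GENCODE M21 transcripts of each segment (GRCm38, 5′ to 3′), with the codon of the conserved cysteine in capitals.
Trbv13-1: catctttgtacttcTGTgccagcagtgatg
Trbv13-2: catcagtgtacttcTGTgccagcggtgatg
Trbv13-3: cagctgtatatttcTGTgccagcagtgatg
Trbv31: ctctggcttctacctcTGTgcctggagtct
Trdv2-1: gcgacgtatttcTGTgcactcagggggagc
Trdv2-2: gcgacgtatttcTGTgctctcatggagcgc
Trgv2: agccacctactacTGTgcagtctggatgag
Trbv13-2 and Trbv13-3 were identical over 90.6% of 340 aligned bases and shared a longest run of 50 bases. Trdv2-1 and Trdv2-2 were identical over 94.8% of 346 aligned bases, with a shared run of 221 bases. Only reads that mapped to a single place were counted, and reads were 150 bases long, so the counts of Trdv2-1 and Trdv2-2 are uncertain.

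Trbc1 and Trbc2 are near-identical copies of the beta constant region, and a given beta chain transcript uses 1 of them. Their first exons have 375 bases each, at chr6:41538218-41538592 and chr6:41546730-41547104 on the plus strand. The exons differ at 1 base, C260A, counted from 1 at the 5′ end of the exon with the base of Trbc1 first. The 30 bases around it are shown with the differing base in capitals.
Trbc1: ctggcacaatcctcgCaaccacttccgctg
Trbc2: ctggcacaatcctcgAaaccacttccgctg
The longest run shared by the transcripts was 259 bases. Read pairs that fall wholly within such a run map to both genes and were not counted, so the levels of Trbc1 and Trbc2 are uncertain.

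All 31 genes had counts, and together they took 0.102% to 0.164% of the counts of a library. Of these, 29 passed the filter on low counts. Trbv21 (on average 6.17 counts per library) and Trdv2-1 (4 counts) did not and were not tested. Levels are given as CPM scaled by TMM (trimmed mean of M values), and between genes as CPM per kilobase of annotated exon. On this scale the beta constant genes stood highest, with 921 for Trbc2 and 419 for Trbc1 on average over the 12 libraries. Trbv13-2 followed with 163, then Trbv16 with 78.3 and Trbv13-1 with 70.4. In all, 18 of 22 Trbv segments were above 20 CPM per kilobase. The other 4 were Trbv26 (9.08), Trbv30 (5.45), Trbv23 (1.70) and Trbv21 (0.643). Trdc, the constant region of the delta chain, had 8.92 CPM per kilobase. The Trdv segments were between 0.470 (Trdv2-1) and 6.55 (Trdv2-2), and Trgv2 was at 4.95.

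The first question was whether Ang II infusion altered the receptor transcripts of WT T cells. Beta chain transcripts were lower after Ang II. Trbc1 had 367, 372 and 326 CPM in the 3 WT sham libraries and 233, 254 and 241 CPM in the 3 WT Ang II libraries. The groups did not overlap, and Trbc1 fell by 0.53 on the log2 scale (SE 0.08, adjusted p = 0.00736 by edgeR's quasi-likelihood test). Trbc2 had 703, 788 and 751 CPM in WT sham and 495, 509 and 436 CPM in WT Ang II, again without overlap. Trbc2 fell by 0.62 (SE 0.08, adjusted p = 0.00604). Summed over both genes, the level under Ang II was 0.656 of the sham level.

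Of the 29 genes tested, 16 were called lower and 0 higher in WT at an adjusted p under 0.05. In the same comparison 18.8% of 16012 genes were called in either direction and 7.06% were called lower. All 16 changed by less than 2-fold, whereas 7.3% of all genes passed the adjusted p together with a log2 change over 1. The log2 change was negative in 27 of the 29, with a median of -0.52, against a median of -0.02 over all genes tested. Without overlap between the groups, 23 of the 29 were lower under Ang II and 0 higher, where 22% of all genes were lower without overlap. The direction depended on what the libraries were scaled to: against the T cell core genes the median of the 29 was 0.00, 13 genes turned positive, and 0 were called. Fewer genes were called when 1 library was left out: 7, 6 and 5 without WT sham replicates 1, 2 and 3, 10 without WT Ang II replicate 2 and 4 without WT Ang II replicate 3.

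**Figure D1:**
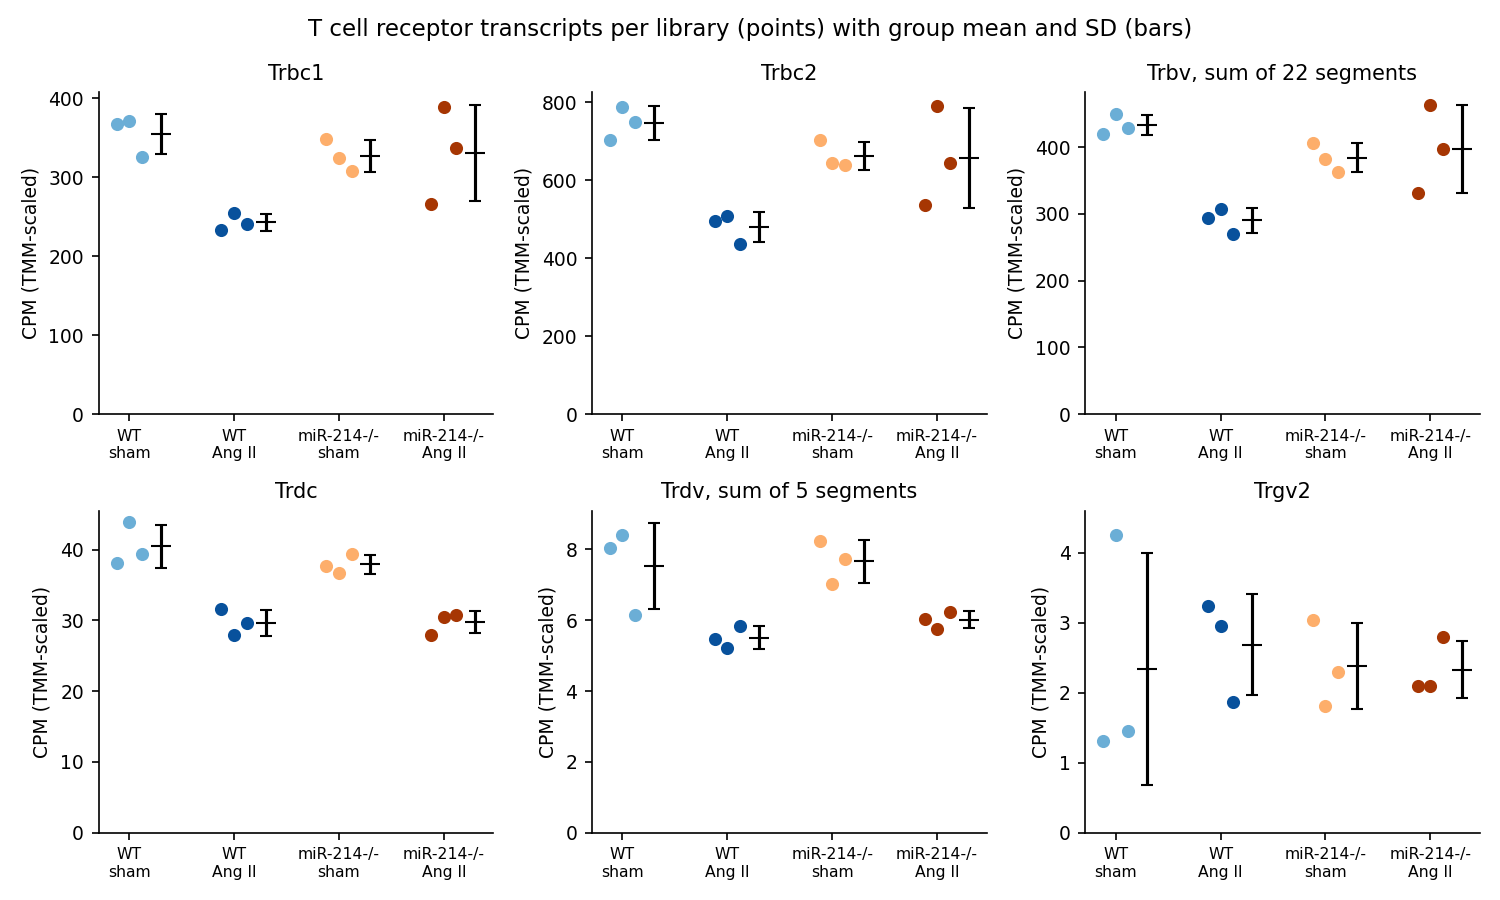
Level in CPM (TMM-scaled) of Trbc1, Trbc2, the sum of 22 Trbv segments, Trdc, the sum of 5 Trdv segments and Trgv2 in each library. Points are libraries, and bars show the mean and SD of 3 libraries per group. The beta panels separate WT sham from WT Ang II but not the miR-214-/- groups. Trdc and the Trdv sum separate sham from Ang II within both genotypes, and Trgv2 overlaps throughout.

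The Trbv segments, which carry the first 2 antigen-contacting loops of the beta chain, moved with the constant genes. A mature beta transcript holds both, so the V and C genes are not independent measures, nor are the numbers of them called. Of 21 tested, 13 were called lower, with a median log2 change of -0.53 and a range from -0.73 to 0.23. The most used segment, Trbv13-2, had 63.3, 63.7 and 66.5 CPM in WT sham and 42.2, 45.0 and 38.3 CPM in WT Ang II. All Ang II libraries were below all sham libraries, and Trbv13-2 fell by 0.60 (SE 0.07, adjusted p = 0.00429), the smallest adjusted p of the 29 genes. The largest fall among the called genes was that of Trbv31, the inverted segment downstream of Trbc2, which had 22.9, 22.7 and 20.2 CPM in WT sham and 10.6, 15.8 and 12.8 CPM in WT Ang II. Trbv31 fell by 0.73 (SE 0.16, adjusted p = 0.0245).

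Trbv13-3 fell by 0.67 (SE 0.12, adjusted p = 0.0147) and Trbv13-1 by 0.63 (SE 0.12, adjusted p = 0.0145). The 3 sequence-related Trbv13 segments shown above were thus all called in WT, where 13 of 21 Trbv segments were. Of another related pair, identical over 88.3% of aligned bases, Trbv12-2 was called and Trbv12-1 was not (-0.62, SE 0.19, adjusted p = 0.0624 by edgeR). Trbv16 fell by 0.62 (adjusted p = 0.0115) and Trbv1 by 0.47 (adjusted p = 0.0431). The other called segments were Trbv2, Trbv5, Trbv12-2, Trbv14, Trbv17, Trbv19 and Trbv20. The 3 tested segments with the lowest CPM were not called. Trbv26 had a log2 change of -0.54 (SE 0.21), Trbv30 of -0.47 (SE 0.34) and Trbv23 of 0.23 (SE 0.42). Trbv23 had only 6 to 22 counts in a library. Trbv4 and Trbv5 lie within the span of a long non-coding RNA gene, 5830405F06Rik, on the same strand, and reads shared with it cannot be assigned to either.

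**Figure D2:**
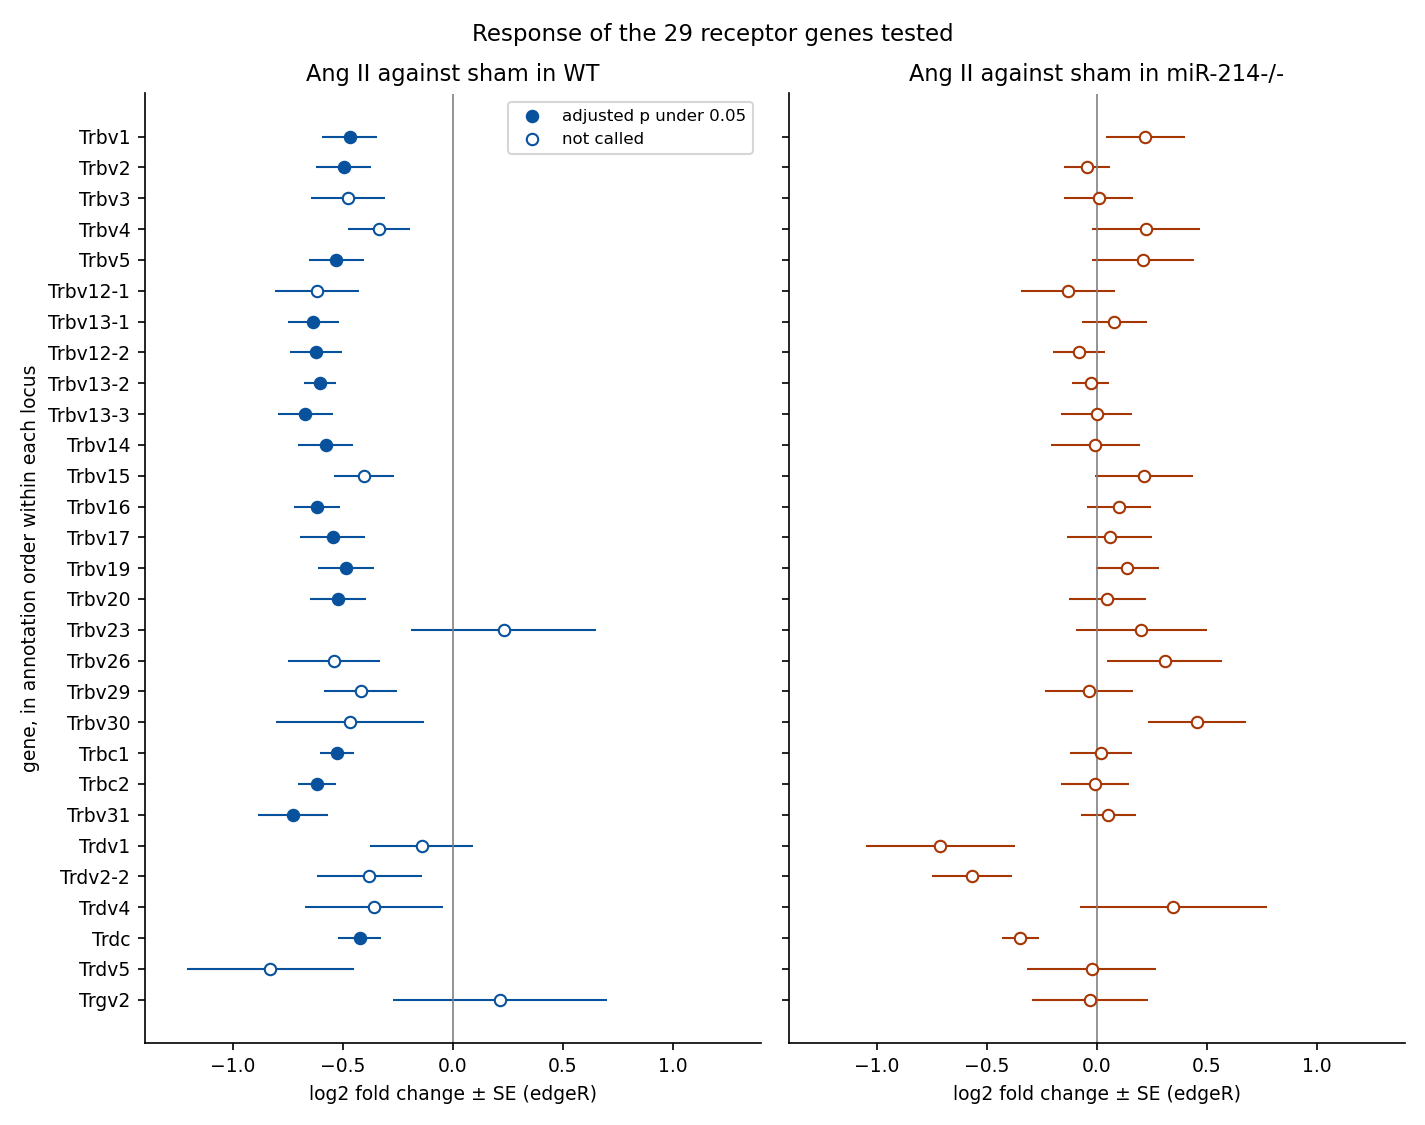
Log2 fold change with its SE (edgeR, TMM scaling) for the 29 receptor genes tested, Ang II against sham, in WT (left) and miR-214-/- (right). Filled points passed an adjusted p of 0.05: 16 in WT, all to the left of 0, and 0 in miR-214-/-.

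The T cell core genes fell alongside. Of the 20, which include the CD3 chains and proximal kinases, 16 were called lower in WT and 0 higher, with a median of -0.51, and their summed level went from 8218 to 9582 CPM in WT sham to 5612 to 6423 CPM in WT Ang II. Of the alpha chain constant gene and the co-receptors, Trac (log2 change -0.35, adjusted p = 0.0147) and Cd4 (-0.45, adjusted p = 0.0143) were called lower by edgeR. Cd8a and Cd8b1 were not called, though their means were also lower. Cd8a had 518 ± 55.9 CPM (SD) in WT sham and 346 ± 81.1 CPM in WT Ang II. Cd8b1 had 422 ± 62.3 and 269 ± 66.1 CPM. Genes of several other cell types, though not of all those listed, moved the opposite way in the same libraries. All 14 genes of a neutrophil list were called higher in WT, and their summed level rose from 218 to 274 CPM in WT sham to 1233 to 3695 CPM in WT Ang II. For red-cell precursors 9 of 14 genes were called higher (444 to 619 CPM against 1729 to 5982 CPM), for basophils and mast cells 7 of 7 (49.7 to 88.3 CPM against 191.5 to 435 CPM), for megakaryocytes 4 of 8, for macrophages and monocytes 2 of 12 and for plasma cells 1 of 8. No B cell gene of 10 was called, with a median log2 change of -0.37. Of 12 genes of natural killer and natural killer T cells 2 were called lower, with a median of -0.62. Over all genes 11.7% were called higher. With scaling to the T cell core genes, where 53.4% of all genes were called higher, the counts called higher were 14 of 14 for red-cell precursors, 7 of 8 for megakaryocytes, 4 of 12 for macrophages and monocytes and 8 of 8 for plasma cells, and those for neutrophils, for basophils and mast cells and for B cells were as before. The part of these cells in the lower receptor levels was not tested. In all these lists no gene was at 0 counts throughout.

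Counts set against each other within a library do not depend on the scaling. There were 13.02, 12.97 and 11.2 Trbc counts per 100 counts of the T cell core genes in WT sham and 11.35, 12.1 and 12.1 in WT Ang II, and the groups overlapped (exact permutation test, two-sided, p = 0.4). The Trbv segments had 39.3, 38.7 and 39.8 counts per 100 Trbc counts in WT sham and 40.3, 40.25 and 39.8 in WT Ang II (exact permutation p = 0.1). That is the smallest p which 3 against 3 libraries allow, and the difference of means was 0.870 counts per 100. Trbc1 took between 30.3% and 35.6% of the Trbc counts in all 12 libraries. Over the 6 ratio tests made in both genotypes, no p adjusted by Benjamini-Hochberg was below 0.3 (exact permutation tests).

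**Figure D3:**
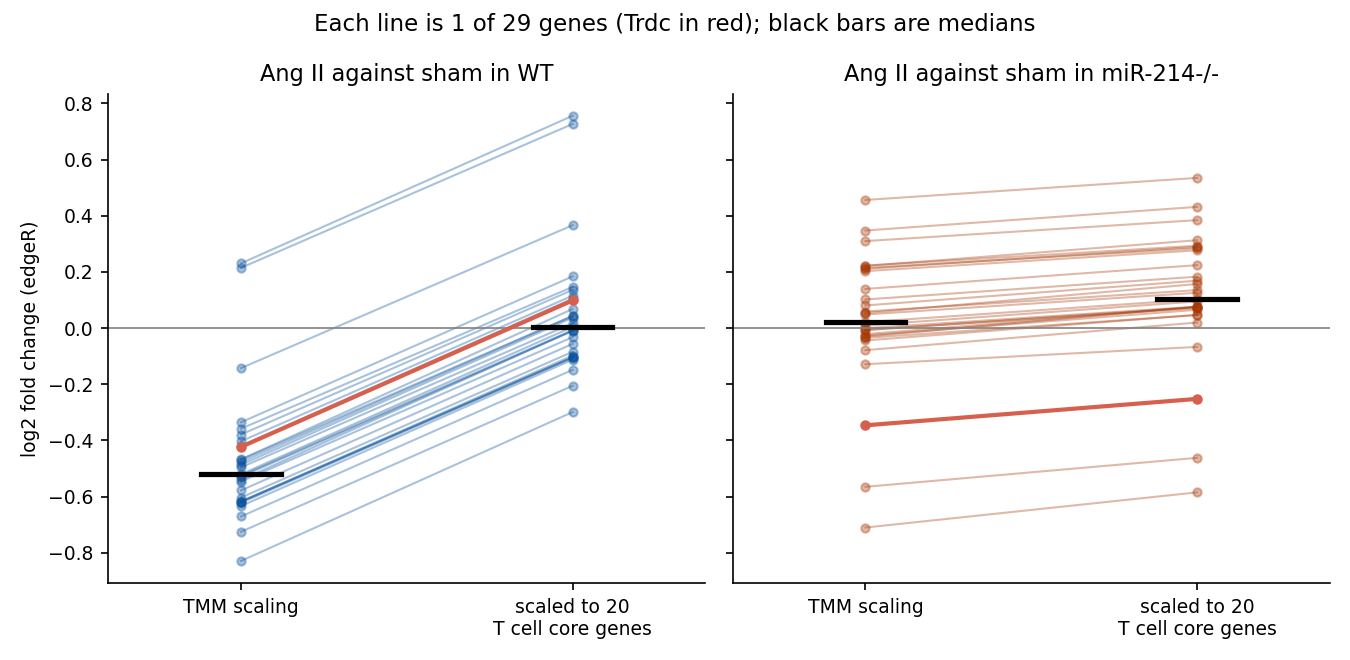
Log2 fold change of each of the 29 genes, Ang II against sham, with TMM scaling and with scaling to 20 T cell core genes, in WT (left) and miR-214-/- (right). Each line is a gene, Trdc is red and black bars are medians. The WT median moves from -0.52 to 0.00. In miR-214-/- Trdc is at -0.35 and -0.25 (adjusted p = 0.636 by edgeR for the latter). Trdv1, Trdv2-2 and Trbv12-1 also stay below 0 there under both scalings.

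In the miR-214-/- mice the levels of Trbc1, Trbc2 and Trbv13-2 overlapped between Ang II and sham. Trbc2 had 705, 645 and 640 CPM in sham and 537, 791 and 645 CPM in Ang II, with a log2 change of -0.01 (SE 0.15, adjusted p = 0.989). Both the lowest and the highest of these 6 values were Ang II libraries. Trbc1 had 349, 325 and 308 CPM in sham and 267, 389 and 337 CPM in Ang II (log2 change 0.02, SE 0.14). Trbv13-2 had 60.4, 56.3 and 58.1 CPM in sham and 51.4, 62.0 and 57.6 CPM in Ang II (-0.03, SE 0.08). Of the 29 genes tested 0 were called by edgeR, 0 by DESeq2, and 2 had an unadjusted p under 0.05. Among all 15937 genes tested by edgeR 0% were called and 12.2% had an unadjusted p under 0.05, and DESeq2 called 277 of 13034. The median log2 change of the 29 was 0.02, against 0.03 over all genes.

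The 3 miR-214-/- Ang II libraries differed among themselves. Replicate 1 had the lowest summed Trbv level of the 3 (332 CPM, against 463 and 396) and 6385 CPM of T cell core genes, against 8479 and 8312. Replicate 2 had the highest Trbv and Trbc levels of all 12 libraries, and also the highest sums of that group for red-cell precursor (4820 CPM), neutrophil (3335 CPM) and B cell genes (523 CPM). Without replicate 1 the median of the 29 genes was 0.15, and without replicate 2 it was -0.09. The largest rise among the tested genes was that of Trbv30 (log2 change 0.46, SE 0.22, adjusted p = 0.451), whose Ang II libraries were all above the sham libraries. It was the only 1 of the 29 to be so, where 8.86% of all genes were.

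Trdc, the delta chain constant gene, had lower levels under Ang II in both genotypes and passed the test in WT but not in miR-214-/-. Trdc had 38.1, 43.9 and 39.3 CPM in WT sham and 31.6, 27.9 and 29.6 CPM in WT Ang II. In miR-214-/- it had 37.8, 36.7 and 39.4 CPM in sham and 27.95, 30.4 and 30.8 CPM in Ang II. All 6 Ang II libraries were below all 6 sham libraries, as they also were for the summed Trbj2 segments of the beta locus. How many of all genes separated in this way was not counted. Within a genotype, 22% of all genes were lower without overlap in WT and 10.5% in miR-214-/-. Trdc fell by 0.42 in WT (SE 0.10, adjusted p = 0.0287). In miR-214-/- the log2 change was -0.35 (SE 0.08, unadjusted p = 0.00391, adjusted p = 0.266 by edgeR). The difference between these 2 changes was 0.09 (SE 0.12, adjusted p = 0.72 for the interaction).

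Over both genotypes, with genotype in the model, 4 of the 29 genes were called lower and 0 higher, while 15.9% of 16770 genes were called and 7.72% were called lower. Trdc had the smallest adjusted p of them (fell by 0.40, SE 0.06, adjusted p = 0.00614). The others were Trdv2-2 (fell by 0.49, SE 0.13, adjusted p = 0.0315), Trbv12-2 (fell by 0.36, SE 0.11, adjusted p = 0.0467) and Trbv13-2 (fell by 0.33, SE 0.10, adjusted p = 0.0499). When any of 9 single libraries was left out, 1 or 2 genes were called. Without miR-214-/- Ang II replicate 2 there were 12, and with scaling to the T cell core genes 0, where the log2 change of Trdc over both genotypes was -0.08 (SE 0.11) and that in WT was 0.10 (SE 0.13).

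Set against the beta constant genes of the same library, Trdc had 3.56, 3.79 and 3.65 counts per 100 Trbc counts in WT sham and 4.33, 3.66 and 4.37 in WT Ang II (exact permutation p = 0.2). In miR-214-/- there were 3.59, 3.78 and 4.15 in sham and 3.48, 2.58 and 3.14 in Ang II (exact permutation p = 0.1, the smallest possible). The means moved in opposite directions in the 2 genotypes, up by 0.454 in WT, and down to 3.06 from 3.84 in miR-214-/-. With 3 against 3 libraries this test cannot give a p under 0.1, so neither could reach 0.05 and missing it decides nothing. In miR-214-/- all Ang II libraries were below all sham libraries, and in WT the groups overlapped. Whether the genotypes differ in this ratio was not tested. Trdc overlaps in part Trdv5 and an antisense gene (Gm43434) on the other strand. The strand setting of the counting was not given in the sources used here, so reads from the shared stretches cannot be told apart. Over the 12 libraries Trdc held 10278 counts, Trdv5 490 and Gm43434 299.

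**Figure D4:**
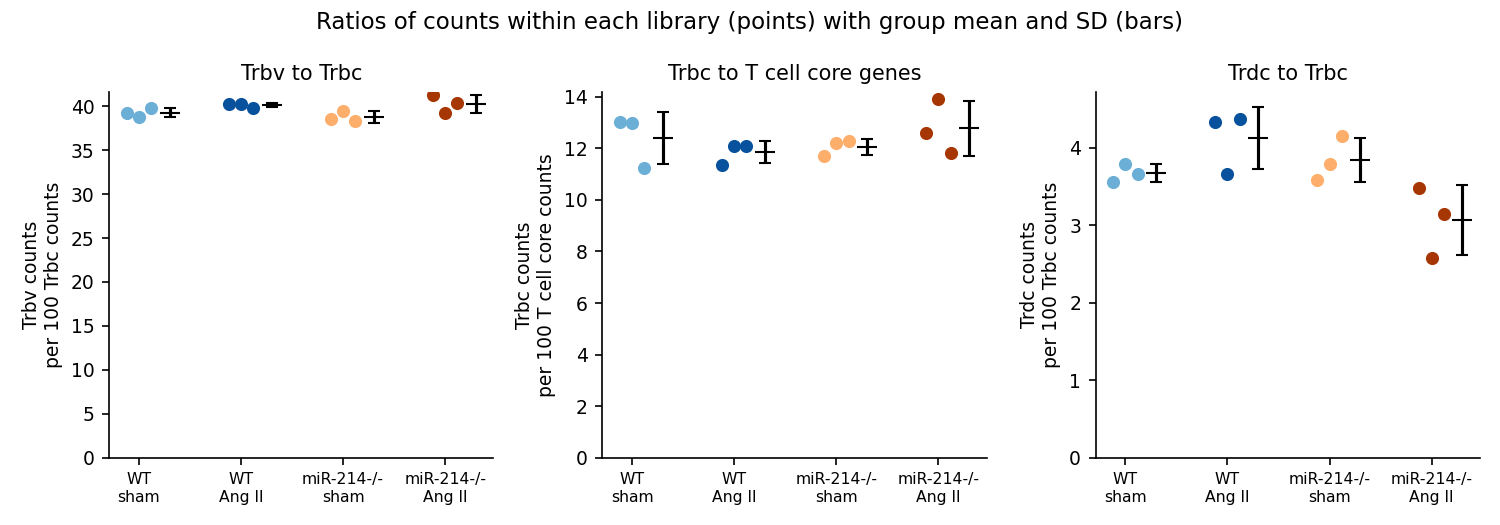
Counts of Trbv per 100 Trbc, of Trbc per 100 T cell core and of Trdc per 100 Trbc in each library (points), with the mean and SD of 3 libraries per group (bars). The first 2 ratios overlap or nearly touch between treatments, and Trdc per 100 Trbc is lower in all 3 miR-214-/- Ang II libraries than in the miR-214-/- sham libraries.

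The Trdv segments had few counts. Trdv2-2 had 49 to 87 counts per library. The WT sham libraries had 3.40, 2.86 and 2.32 CPM of it, and the WT Ang II libraries 2.11, 1.85 and 2.54 CPM, which overlap. The miR-214-/- libraries had 3.45, 3.07 and 3.11 CPM with vehicle and 2.13, 2.21 and 2.14 CPM with Ang II, with no overlap. The log2 change was -0.38 in WT (SE 0.24, adjusted p = 0.300) and -0.57 in miR-214-/- (SE 0.18, adjusted p = 0.326). Trdc and Trdv2-2 were the 2 genes of the 29 that were lower without overlap in miR-214-/-, where 10.5% of all genes were. Trdv1 had a log2 change of -0.14 in WT (SE 0.23) and of -0.71 in miR-214-/- (SE 0.34, adjusted p = 0.447), the largest fall in that genotype. Trdv4 had -0.36 (SE 0.31) and 0.35 (SE 0.42), and Trdv5 had -0.83 (SE 0.38) and -0.02 (SE 0.29). Trdv2-2 and Trdv4 overlap the spans of antisense genes (Gm43647 and Gm30275), and Trdv5 overlaps Trdc. Summed over 5 segments, the Trdv level under Ang II was 0.732 of the sham level in WT and 0.785 in miR-214-/-. The sums ran from 6.15 to 8.41 CPM in WT sham and from 5.21 to 5.85 CPM in WT Ang II. In miR-214-/- they ran from 7.02 to 8.23 CPM in sham and from 5.75 to 6.24 CPM in Ang II. The groups did not overlap within either genotype.

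Trgv2, a gamma chain V segment, had 30 to 107 counts per library and no difference beyond its spread in any comparison. It had 1.31, 4.25 and 1.46 CPM in WT sham and 3.23, 2.96 and 1.86 CPM in WT Ang II, with a log2 change of 0.21 (SE 0.49), and in miR-214-/- the change was -0.03 (SE 0.26). One WT sham library was thus above all Ang II libraries and the other 2 were below them.

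Between the genotypes no receptor gene was called. In sham mice 24 of the 29 genes were lower in miR-214-/-, with a median log2 difference of -0.18. By edgeR 0 were called, by DESeq2 0, and 3 had an unadjusted p under 0.05. Of all 15913 genes 0.0251% were called and 6.67% had an unadjusted p under 0.05. The most positive difference was that of Trdv1 (0.42, SE 0.28) and the most negative that of Trdv4 (-0.64, SE 0.40), and both missed the threshold. Under Ang II 26 of the 29 were higher in miR-214-/-, with a median of 0.41 that became 0.08 with scaling to the T cell core genes. By edgeR 0 were called, by DESeq2 0, and 11 had an unadjusted p under 0.05, against 0% called and 8.56% with such a p among 16215 genes. Trbc1 differed by 0.45 (SE 0.14, adjusted p = 0.569) and Trbc2 by 0.46 (SE 0.16, adjusted p = 0.569). The most positive difference was that of Trbv31 (0.61, SE 0.16) and the most negative that of Trgv2 (-0.21, SE 0.27). Over both treatments 0 genes of the 29 were called by either tool, 0 had an unadjusted p under 0.05, and of 16770 genes 0% were called and 1.84% had such a p. There the differences ran from -0.28 for Trdv4 (SE 0.28) to 0.22 for Trbv1 (SE 0.15).

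The interaction asks whether the response to Ang II differed between the genotypes. Of the 29 genes 25 had a positive interaction, that is, a less negative or more positive change in miR-214-/- than in WT, with a median of 0.59 on the log2 scale. By edgeR 0 were called, with a smallest adjusted p of 0.213, and 18 had an unadjusted p under 0.05, while 0.00596% of 16770 genes were called and 14.8% had an unadjusted p under 0.05. Trbc1 had an interaction of 0.56 (SE 0.17, adjusted p = 0.223), Trbc2 of 0.63 (SE 0.18, adjusted p = 0.22) and Trbv13-2 of 0.59 (SE 0.12, adjusted p = 0.213). The most positive was that of Trbv30 (0.94, SE 0.41) and the most negative that of Trdv1 (-0.55, SE 0.40).

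The result hung on the tool and on 1 library. DESeq2 called 5 of the genes higher (Trbc2, Trbv13-1, Trbv13-2, Trbv16 and Trbv31), where it called 0.69% of 13771 genes higher. Without miR-214-/- Ang II replicate 1, the library with the low T cell core level, edgeR called 9 of them, namely Trbc1, Trbc2, Trbv5, Trbv13-1, Trbv13-2, Trbv13-3, Trbv15, Trbv16 and Trbv19, and 919 genes in all. With scaling to the T cell core genes 0 were called and the median interaction was 0.15.

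The composition of Trbv usage was alike in all libraries. Trbv13-2 made up 14.8% of all Trbv counts on average over the 12 libraries, Trbv16 8.26% and Trbv1 7.53%. The share of Trbv13-2 was 14.9% ± 0.68 (SD, n = 3) in WT sham and 14.4% ± 0.24 in WT Ang II. The largest change of a mean share was 0.57 percentage points in WT, in Trbv31, and 0.93 in miR-214-/-, in Trbv1, both with overlapping groups. The groups overlapped for 20 of 22 segments in each genotype. The exceptions were Trbv4 and Trbv23, higher under Ang II in WT, and Trbv30 (higher) and Trbv21 (lower) in miR-214-/-. Trbv23 had only 6 to 22 counts in a library and Trbv21 only 1 to 11. With unchanged shares, 3 against 3 libraries separate with a probability of 0.1 (exact permutation), so 2 of 22 is no excess. Expressed as the number of equally used segments that would give the same Shannon entropy, the WT libraries had a diversity of 16.9 ± 0.19 (SD, n = 3) with vehicle and 17.1 ± 0.13 with Ang II, and the miR-214-/- libraries one of 16.8 ± 0.14 with vehicle and 16.9 ± 0.34 with Ang II. These counts show segments and not clones, since the joined CDR3 sequences were not read here.

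**Figure D5:**
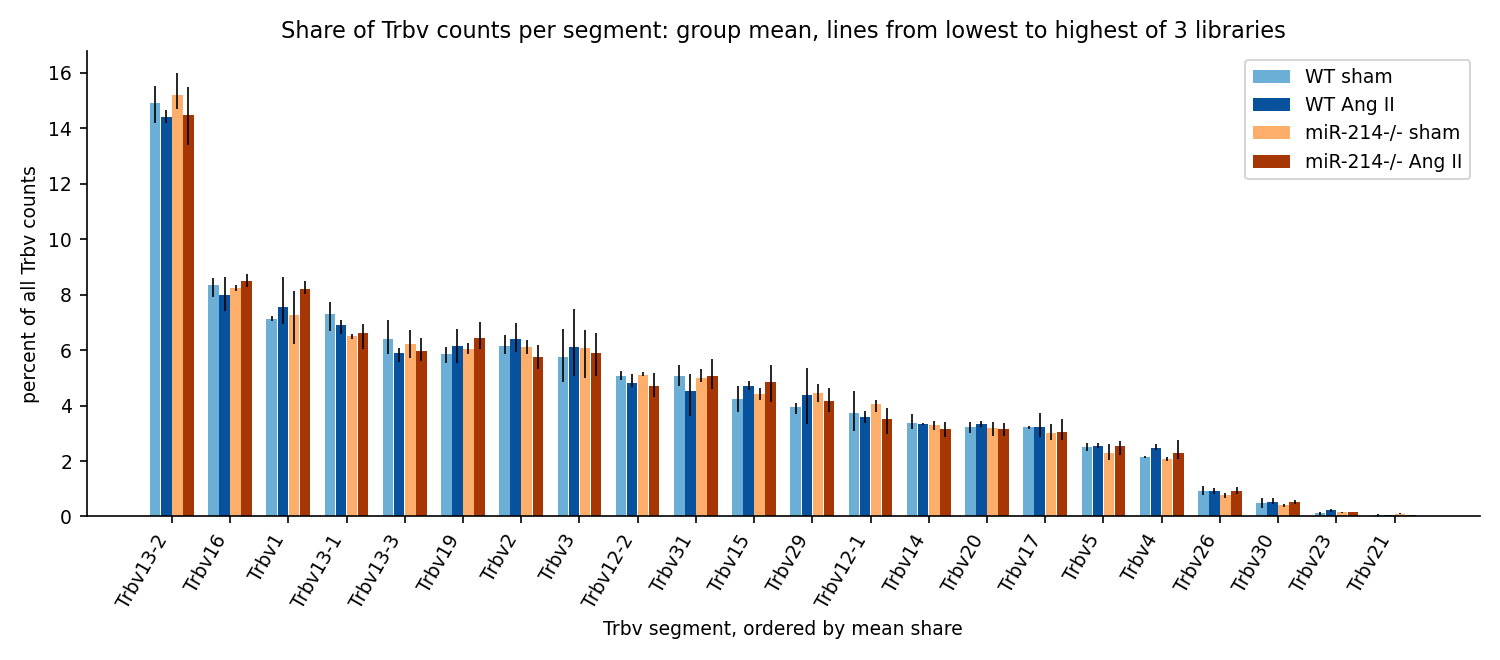
Share of each of 22 Trbv segments in all Trbv counts, in percent. Bars are means of 3 libraries per group and lines run from the lowest to the highest library. Trbv13-2 leads in every group, and the order of the segments is alike in the 4 groups.

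Genes that cut and rejoin the receptor loci were described alongside. Of 13 recombination genes tested in WT, 1 was called: Hmgb2, a DNA-bending protein with many roles outside recombination, rose by 1.22 (SE 0.07, adjusted p = 0.000561). In that comparison 18.8% of all genes were called in either direction and 11.7% were called higher. Rag1, which cuts the DNA, was at or below 2.43 CPM in all libraries and had a log2 change of 1.94 in WT (SE 0.94, adjusted p = 0.188). Over both genotypes 3 of 13 were called higher, where 1368 of 16770 genes were. These 3 were Rag1 (2.20, adjusted p = 0.0385), Hmgb2 (0.73, adjusted p = 0.0202) and Xrcc6, a subunit of the Ku end-joining complex (0.25, adjusted p = 0.0348). The 1 called lower was the end-joining kinase Prkdc (-0.18, adjusted p = 0.0284), where 7.72% of all genes were. In miR-214-/- edgeR called 0 of 12, and 0% of all genes. With scaling to the T cell core genes 6 of 13 were called higher in WT and 4 of 13 over both genotypes, where 53.4% and 33% of all genes were. Of 9 genes of a gamma-delta T cell list, edgeR called 0 in WT, in miR-214-/- or over both genotypes, with medians of 0.09, 0.22 and 0.02. In turn 0, 1 and 2 had an unadjusted p under 0.05, against 5705 of 16012, 1939 of 15937 and 5548 of 16770 genes. With scaling to the T cell core genes 2 of the 9 were called higher in WT and 3 over both genotypes.

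The 5 genes whose log2 CPM ranked the 12 libraries most like Trdc did, among 16769 others tested, were Parp8 (Spearman's rho 0.99), Rnf213 (0.97), Arhgef11 (0.96), Ptk2b (0.95) and Eif4g3 (0.94). These coefficients describe 12 libraries that share 4 groups. Among the receptor genes the coefficient with Trdc was highest for Trbv12-2 (0.78) and lowest for Trgv2 (0.03).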

How the data were processed

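Splenic T cell RNA of 12 mice was sequenced as stranded poly(A) libraries with paired reads of 150 bases. The authors trimmed reads, mapped them to GRCm38 with STAR and counted unique exonic reads per gene with featureCounts (Subread 1.5.2, per the labels), and the deposited table holds these raw counts without normalization. All sample columns were used (0 left out). Of 49315 rows, 49056 matched GENCODE M21 (GRCm38), and the 259 others held 0.0245% of the counts. None of 12 replicate pairs was identical.

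Counts were tested in R 4.3.3 with edgeR 4.0.16 (filterByExpr, TMM scaling, quasi-likelihood test at its defaults, Benjamini-Hochberg adjustment over all genes tested), with calls made below an adjusted p of 0.05. Each pair of groups was fitted alone, and the interaction and the effects over both genotypes or treatments over 12 libraries with both factors. DESeq2 1.42.0 (Wald test, independent filtering at 0.1) was an alternative, as were other scalings, filters, fits, the replicate number as a block, and leaving out each library. On simulated data for Ang II against sham in WT (16008 genes), edgeR recovered 82 of 100 genes changed by a log2 fold of 1 and 100 of 100 changed by 2, with 8 false calls. For the interaction (16593 genes) it recovered 45 and 100 of 100, with 7 false calls. The simulation gave every gene the same spread between libraries (dispersion) and no shift in cell composition. Its folds were larger than the changes of the called receptor genes, so its rates do not hold for changes of that size.

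Lists and receptor genes were chosen with earlier results of these data known, as were the genes to name: all constant genes, Trgv and Trdv genes with 10 counts on average, the 3 highest and 3 lowest Trbv segments, called genes (beyond 6, the 3 largest changes each way), and the extremes where none was called. A member of the gamma-delta T cell list is not reported here. The within-library ratio tests were chosen after seeing the data. Tests measure the spread between mice, and depth limits the Trdv and Trgv2 values. Sequences were read from the GENCODE M21 transcripts and compared in Python 3.11.15, and figures were drawn with matplotlib 3.10.9.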

Additional observations from a re-analysis of the deposited data

How the results depend on the processing

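In WT, where 16 receptor genes were called lower, 0 were called with scaling to the T cell core genes, 10 with no filter on counts, 10 with the replicate block, 0 with an absolute log2 change over 1 in addition, and 4 to 12 without a single library (4 without WT Ang II replicate 3). Over both genotypes the 4 calls became 0 with T cell core scaling, 1 with no filter, 1 with the replicate block, 0 with the fold threshold and 1 to 12 without a single library. For the interaction the 0 calls became 5 with DESeq2 and ranged from 0 to 9 without a single library. Library size alone, added after seeing the data, gave 12 calls in WT. The other 4 comparisons kept 0 calls under every alternative run. Same-numbered libraries were not shown to be paired: the correlation of their deviations was over 0.1 in 7 of 18 pairs and ranged from -0.64 to 0.41.

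With T cell core scaling, which shifts the median of all genes in WT by about as much as the receptor genes had fallen (0.51 after it), the ratio of Ang II to sham in WT became 0.976 for Trbv, 0.954 for Trbc, 1.06 for Trdv and 1.07 for Trdc, and for Trdc in miR-214-/- 0.840. In WT the log2 change turned positive for Trbv1 (0.0433), Trbv2 (0.0172), Trbv3 (0.0431), Trbv4 (0.18), Trbv15 (0.12), Trbv19 (0.0370), Trbv20 (0.00442), Trbv29 (0.10), Trbv30 (0.0680), Trdc (0.10), Trdv1 (0.37), Trdv2-2 (0.14) and Trdv4 (0.15). Without a single WT library the log2 change ranged from -0.0957 (without WT sham replicate 1) to 0.571 for Trbv23 and from -0.0752 (without WT sham replicate 1) to 0.980 for Trgv2, which also turned negative without WT sham replicate 3 (-0.0389). The cause was not tested. All Trbv segments had 50 counts over the libraries, so that the diversity with that minimum was the same as reported. Depth limits Trdv1, Trdv2-1, Trdv4, Trdv5, Trbv21, Trbv23, Trbv30 and Trgv2, whose counts fell to 30 or fewer in a library.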

Other observations

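The J and D segments of the beta locus and the gamma genes outside the 31 gave further values. The 7 Trbj2 segments, which join upstream of Trbc2, summed to 59.9 ± 7.17 CPM (SD, n = 3) with vehicle and 35.6 ± 3.83 CPM with Ang II in WT mice, and to 54.4 ± 6.48 and 42.6 ± 2.71 CPM in miR-214-/- mice. All 6 Ang II libraries (32.4 to 44.3 CPM) were below all 6 sham libraries (47.0 to 68.2 CPM). The 7 Trbj1 segments summed to 71.9 ± 13.3 CPM with vehicle and 52.7 ± 2.37 CPM with Ang II in WT mice, and to 72.0 ± 9.11 and 60.4 ± 8.27 CPM in miR-214-/- mice, with overlap in miR-214-/-. The Trbj segments had between 20.7 counts (miR-214-/- Ang II replicate 2) and 37.0 counts (miR-214-/- sham replicate 3) per 100 Trbv counts. The 4 gamma constant genes, annotated as Tcrg-C1 to Tcrg-C4, summed to 21.6 ± 5.38 CPM with vehicle and 24.1 ± 7.79 CPM with Ang II in WT mice, and to 22.8 ± 2.27 and 21.04 ± 3.80 CPM in miR-214-/- mice, so that these groups overlapped where those of Trdc did not. Per 100 Trdc counts there were 53.1 ± 10.3 gamma constant counts in WT sham and 80.4 ± 21.5 in WT Ang II. The 13 Trbv pseudogenes together stayed at or below 2.30 CPM in every library. None of these sums was tested.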
